A study of Rattus norvegicus with 9 samples.

Results

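The D cyclins Ccnd1, Ccnd2 and Ccnd3, the kinases Cdk4 and Cdk6, the inhibitors Cdkn1a, Cdkn1b, Cdkn1c and Cdkn2b, and the kinase subunit Cks1b were examined in rat pancreatic islets. These 10 genes were taken by name, and all 10 were found among the 14217 genes with a probe set that the platform annotation assigns to a single gene. Together they had 15 such probe sets, and for a gene with several, the probe set was selected on its mean over the 9 arrays, the highest being used. RNA came from islets of 5 obese Wistar rats given an energy-rich cafeteria diet and from islets of 4 lean Wistar rats given standard chow, with 30 days of feeding in the study's title. Islets were freed with collagenase, and each sample was hybridised to 1 Affymetrix Rat Genome 230 2.0 array. The labels give neither the age nor the sex of the rats, nor whether animals were pooled, so p-values cover only variation between these samples, which may be technical.

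D-type cyclins are made in response to growth signals and bind Cdk4 or Cdk6. The active pair phosphorylates the retinoblastoma protein, which frees E2F factors to switch on genes of DNA synthesis and so carries a cell from G1 into S phase. Cip/Kip proteins (Cdkn1a or p21, Cdkn1b or p27, Cdkn1c or p57) and INK4 proteins (among them Cdkn2b or p15) restrain these kinases, and Cks1b helps the ubiquitin ligase subunit Skp2 to mark p27 for destruction. In mice, loss of Ccnd2 or Cdk4 leaves too few beta cells, so this switch is a central control of beta cell number.

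Values are on the log2 scale after RMA, a summary per probe set with the arrays brought to equal distributions, and differences are cafeteria diet minus chow with a moderated standard error (SE) from limma. Brightness depends on the probes, so values are compared between samples and not between genes. Beta cell markers were bright, with a median over 7 measured genes of 12.81 and a highest mean of 14.19 for Ins2, whereas the array medians lay between 5.28 and 5.32. Their summed score, the mean deviation from the 9-array mean, lay between -0.055 and 0.069 in cafeteria samples and between -0.015 and 0.052 in chow samples. The fitted difference was below 0 in 9 of 10 immune markers (median -0.71) and above 0 in 8 of 9 acinar markers (median 0.58). By limma, 0 of them passed the threshold. Of the immune markers, 5 were lower at an unadjusted p under 0.05, 3 of them with groups that did not overlap. Of the acinar markers, 2 were higher at that level, and 1 marker had groups that did not overlap. Over all genes, 3.28% were lower and 3.42% higher at that level. The acinar score ran from -1.13 to 0.79 in cafeteria samples and from -0.80 to 0.10 in chow samples. The fitted difference was also below 0 in 8 of 8 immediate early genes (median -0.64) and in 7 of 7 markers of other islet endocrine cells (median -0.22). Of single samples, chow replicate 1 stood out in ductal markers and in immediate early genes, and chow replicate 3 in immune markers. The immediate early score was 1.32 in chow replicate 1 and -0.42 to 0.22 in the other chow samples. In cafeteria samples it was -0.61 to 0.55. Array correlations ran from 0.979 to 0.994.

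No tested member passed the threshold, which does not show that they were unchanged. Of the 9 members other than Cks1b, 0 passed an adjusted p of 0.05 by limma, and 0 had an unadjusted p under 0.05. Over all 14217 genes the adjusted test called 0% and the unadjusted p called 6.70%. The fitted difference was above 0 in 6 of the 10 members, against 50.8% of all genes, and the median difference was 0.077 over the members and 0.0025 over all genes. Without Cks1b, which was listed for its result in this contrast, it was above 0 in 5 of 9 with a median of 0.032. Without chow replicate 1 the median over all 10 was 0.0021.

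Cks1b was put on the list because earlier results of these arrays had shown it among the genes with the smallest p, so its values are a description without a test. Its brighter probe set 1371480_at read 6.66, 6.58, 6.52, 6.70 and 6.78 in cafeteria samples, against 6.09, 6.22, 6.40 and 6.20 in chow samples. Every cafeteria sample lay above every chow sample, as did 1.33% of all genes. Groups without overlap in either direction made up 2.17% of all genes, and 0.837% were lower throughout. The difference was 0.42, a 1.34-fold higher value, and lay between 0.37 and 0.48 when any single sample was left out. The gene was chosen by this contrast, so the separation, size and steadiness of its difference are not independent of that choice. The dimmer probe set 1376346_at read 5.34, 5.25, 5.59, 5.33 and 5.36 in cafeteria samples, against 4.98, 5.27, 5.06 and 4.99 in chow samples. Here chow replicate 2 lay above cafeteria replicate 2, and the difference was 0.30. Cks2, the close relative of Cks1b, averaged 6.09 ± 0.54 (SD, n = 5) in cafeteria samples and 5.87 ± 0.26 (n = 4) in chow samples, and its groups overlapped (0.22, SE 0.25; limma adjusted p = 0.895). The difference of Cks2 was 0.035 without cafeteria replicate 5 and 0.41 without cafeteria replicate 1.

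The promoters of Cks1b and Cdk4 are shown because their RefSeq start site (build GRCr8) is the outer end of the gene, and because Cks1b had the largest difference of the members and Cdk4 the most negative. Each is the 250 bases before the start site, 5′ to 3′ on the gene's strand, at chr2:177135334-177135583 (minus strand) for Cks1b and at chr7:64771203-64771452 (plus strand) for Cdk4. Capitals mark matches on either strand to TTTGAA (the cell cycle homology region, CHR, of mitotic genes), to CCAAT (the binding site of NF-Y) and to CACGTG (the E-box bound by Myc and by clock factors).
Cks1b: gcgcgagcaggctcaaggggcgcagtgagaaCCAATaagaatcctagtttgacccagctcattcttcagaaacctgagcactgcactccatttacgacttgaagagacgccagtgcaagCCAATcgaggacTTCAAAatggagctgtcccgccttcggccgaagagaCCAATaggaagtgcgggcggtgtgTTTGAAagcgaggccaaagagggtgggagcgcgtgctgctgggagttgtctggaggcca
Cdk4: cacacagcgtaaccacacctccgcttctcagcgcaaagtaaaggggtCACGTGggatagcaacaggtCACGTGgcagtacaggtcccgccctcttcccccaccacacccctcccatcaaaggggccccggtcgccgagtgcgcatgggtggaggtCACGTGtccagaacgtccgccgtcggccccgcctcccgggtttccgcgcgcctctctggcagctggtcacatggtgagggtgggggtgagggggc

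The Cks1b window held TTTGAA on the gene's strand from base 59 to base 54 before the start site and on the opposite strand from base 119 to base 114. It held CCAAT at 3 places, starting 219, 131 and 83 bases before the start site. Among the 11733 array genes with a promoter in the RefSeq table, 10.9% held TTTGAA and 35.1% held CCAAT. Of the 15 mitosis genes with a promoter, 6 held TTTGAA and 12 held CCAAT. The Cdk4 window held CACGTG at 3 places, starting 203, 183 and 95 bases before the start site, and 7.82% of the array genes held it. Promoters were given for 6 members. Besides these, that of Cdkn2b held TTTGAA and those of Ccnd3 and Cdkn1b held CCAAT. The E2F site letters TTTCCCGC and TTTGGCGC were in 0 of the 6, against 1.54% and 0.639% of the array genes. A match describes letters and not a bound factor.

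**Figure D1:**
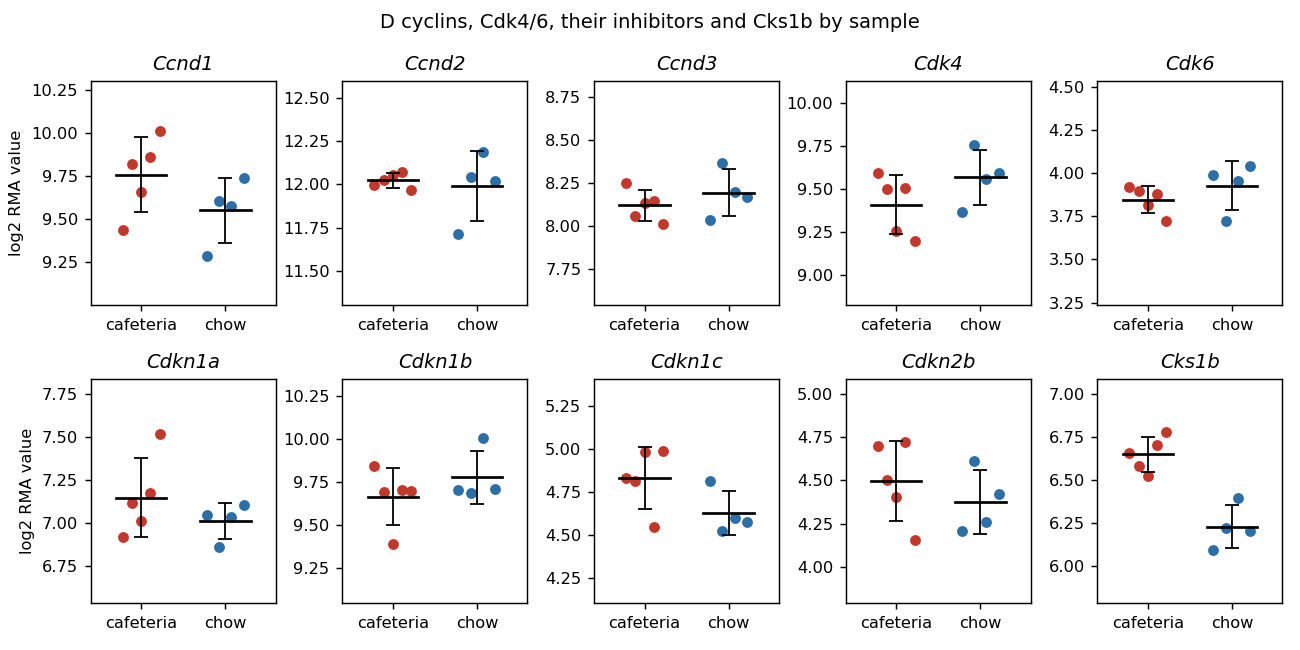
Log2 RMA values (vertical axes, all panels spanning the same range of log2 units) of the 10 genes in 5 cafeteria samples (red) and 4 chow samples (blue). Points are samples in replicate order, horizontal lines are group means and bars are ± 1 SD; Cks1b alone has groups that do not overlap, and its difference is shown as a description.

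Among the cyclins, Ccnd1, the D cyclin most responsive to growth factors, read 9.44, 9.82, 9.66, 9.86 and 10.01 in cafeteria samples, against 9.29, 9.60, 9.58 and 9.74 in chow samples (probe set 1371643_at). Cafeteria replicate 5 was the highest array and chow replicate 1 the lowest, and the groups overlapped. The difference of 0.21 (SE 0.13) corresponds to 1.15-fold, with a 95% interval from 0.951-fold to 1.40-fold (limma adjusted p = 0.846). Its other probe sets gave 0.21 (SE 0.24) and 0.28 (SE 0.13), with correlations to the first of 0.890 and 0.918 over the 9 arrays. The difference stayed above 0 with every single sample left out, from 0.12 without chow replicate 1 to 0.29 without cafeteria replicate 1. Ccnd1 ran at -0.880 with the score of the other islet endocrine cells over the 9 arrays, and the part of those cells in its value was not tested.

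Ccnd2, the D cyclin on which postnatal beta cell growth depends in mice, had 1 probe set, 1370810_at. It read 12.00, 12.03, 12.06, 12.07 and 11.97 in cafeteria samples, against 11.71, 12.05, 12.19 and 12.02 in chow samples. The cafeteria samples fell inside the range of the chow samples, with a SD of 0.043 (n = 5) in cafeteria samples and 0.20 (n = 4) in chow samples. The difference was 0.032 (SE 0.093; limma adjusted p = 0.968), with an interval from 0.887-fold to 1.18-fold, and it was -0.062 without chow replicate 1. That sample, the lowest in Ccnd2, had a ductal marker score of 1.09, against -0.25 to -0.046 in cafeteria samples and -0.43 to 0.21 in the other chow samples, over 9 measured ductal markers of which 7 were lower under the diet. The part of ductal cells in the Ccnd2 value was not tested, and in such bulk samples fewer cells of a type and less RNA per cell cannot be told apart.

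Ccnd3 read 8.25, 8.06, 8.13, 8.15 and 8.01 in cafeteria samples, against 8.03, 8.37, 8.20 and 8.17 in chow samples (probe set 1369935_at). All but chow replicate 2 lay within the cafeteria range, and the difference was -0.072 (SE 0.083; limma adjusted p = 0.898). It was -0.014 without chow replicate 2 and -0.13 without chow replicate 1.

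Cdk4, the partner of D cyclins in rodent beta cells, read 9.59, 9.50, 9.25, 9.50 and 9.20 in cafeteria samples, against 9.37, 9.75, 9.56 and 9.59 in chow samples (probe set 1369950_at). Cafeteria replicates 3 and 5 lay below every chow sample and the others lay among them. The difference was -0.16 (SE 0.11), or 0.896-fold with an interval from 0.761-fold to 1.06-fold (limma adjusted p = 0.848), and it was -0.096 without chow replicate 2. Cdk6, which can stand in for Cdk4 in many cell types, read 3.92, 3.89, 3.82, 3.88 and 3.72 in cafeteria samples, against 3.99, 3.72, 3.95 and 4.04 in chow samples (probe set 1375757_at). These values lie below the array medians, where RMA compresses differences, and the difference was -0.081 (SE 0.082; limma adjusted p = 0.884). It ranged from -0.15 without chow replicate 2 to -0.042 without chow replicate 4.

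The Cip/Kip inhibitor Cdkn1a, a target of p53, read 6.92, 7.12, 7.01, 7.18 and 7.51 in cafeteria samples, against 7.04, 6.86, 7.04 and 7.10 in chow samples (probe set 1388674_at). Cafeteria replicate 5 stood above the rest. Cafeteria replicates 2 and 4 also lay above every chow sample, replicate 2 only narrowly, and replicates 1 and 3 lay among the chow samples. The difference was 0.14 (SE 0.12; limma adjusted p = 0.867) and 0.044 without cafeteria replicate 5. The other probe set, 1387391_at, was dim and read 3.70, 3.79, 3.74, 4.01 and 3.83 in cafeteria samples, against 3.46, 3.66, 3.56 and 3.62 in chow samples. In it every cafeteria sample lay above every chow sample (0.24, SE 0.080), with an adjusted p of 0.844 by limma. Such a separation was held by 1.33% of all genes, each read in its brightest probe set. The mean of 1387391_at, 3.71, lay below the array medians. The probe sets correlated at 0.445 over the 9 arrays.

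Cdkn1b, the inhibitor whose removal Cks1b assists, read 9.84, 9.69, 9.39, 9.70 and 9.70 in cafeteria samples, against 9.71, 9.68, 10.01 and 9.71 in chow samples (probe set 1373812_at). Most samples lay close together, with cafeteria replicate 3 below them and chow replicate 3 and cafeteria replicate 1 above. The difference was -0.11 (SE 0.10; limma adjusted p = 0.876), and -0.035 without chow replicate 3. Chow replicate 3 had an immune marker score of 1.25, against -0.41 to -0.068 in cafeteria samples and -0.092 to 0.14 in the other chow samples. With that score as a covariate the difference of Cdkn1b was 0.041, and the part of immune cells in it was not tested further. The dimmer probe set 1369192_at read 5.49, 4.19, 3.97, 4.62 and 5.80 in cafeteria samples, against 4.76, 4.85, 5.19 and 4.81 in chow samples. Its SD was 0.80 in cafeteria samples and 0.20 in chow samples, and its difference was -0.087 (SE 0.34; limma adjusted p = 0.977).

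Cdkn1c, an imprinted gene whose loss accompanies beta cell overgrowth in human focal hyperinsulinism, read 4.83, 4.82, 4.98, 4.54 and 4.99 in cafeteria samples, against 4.81, 4.52, 4.60 and 4.57 in chow samples (probe set 1372299_at). All cafeteria samples but replicate 4 lay above every chow sample, replicate 2 only narrowly, and replicate 4 lay among the lowest arrays. The difference was 0.20 (SE 0.10; limma adjusted p = 0.844) and 0.16 to 0.28 with single samples left out. The INK4 inhibitor Cdkn2b, which TGF-beta induces in human epithelial cells, read 4.70, 4.50, 4.40, 4.72 and 4.16 in cafeteria samples, against 4.21, 4.62, 4.26 and 4.42 in chow samples (probe set 1369193_at). Its lowest and highest arrays were both from the cafeteria group, and the difference was 0.12 (SE 0.13; limma adjusted p = 0.889). It ranged from 0.065 without cafeteria replicate 4 to 0.21 without cafeteria replicate 5, and was 0.0035 with the acinar score and 0.010 with the immune score as a covariate. Both genes lay below the array medians. The other INK4 genes named by rule, Cdkn2c and Cdkn2d, differed by 0.014 (SE 0.11; adjusted p = 0.989) and 0.029 (SE 0.079; adjusted p = 0.965), signs that changed with single samples left out.

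**Figure D2:**
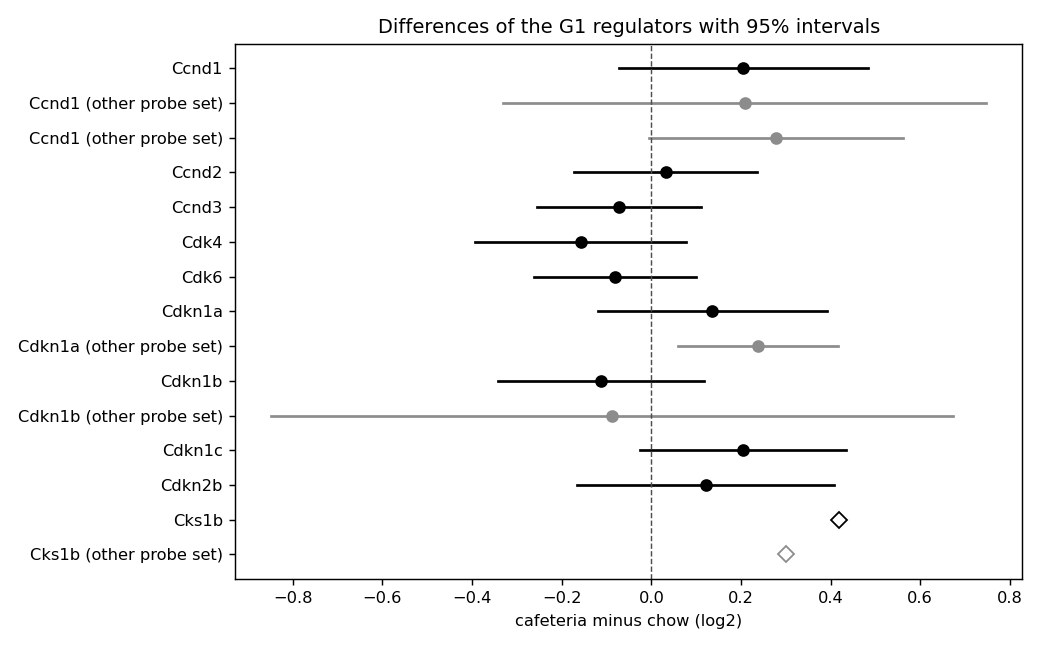
Differences between cafeteria and chow samples in log2 units (horizontal axis) for all 15 probe sets of the 10 genes, black for the probe set used and grey for the others. Lines are 95% intervals from limma; open diamonds are Cks1b, given without an interval as a description. The intervals of the 9 tested members in black all include 0. The grey interval of the other Cdkn1a probe set lies above 0. That probe set is dim, with an adjusted p of 0.844 by limma.

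The members varied among the samples within a diet as well as between diets. Cafeteria replicate 5 was the highest array in 4 of the 10 members (Ccnd1, Cdkn1a, Cdkn1c and Cks1b) and the lowest in 4 others (Ccnd3, Cdk4, Cdk6 and Cdkn2b). Chow replicate 1 was the lowest in 3 (Ccnd1, Ccnd2 and Cks1b). The same cafeteria sample had the highest mitosis score of all arrays, 0.52, and the lowest acinar score, -1.13. Cafeteria replicate 1, by contrast, had the lowest mitosis score, -0.37, and the lowest Ccnd1 and Cdkn1a of its group.

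Over the 9 arrays, Ccnd3 and Cdk4 ran most nearly together of the 45 pairs of members, with a Pearson correlation of 0.822 and a Spearman correlation of 0.933. It was 0.564 without the samples farthest from the median of Ccnd3, cafeteria replicate 5 and chow replicate 2. Ccnd1 and Cdkn1a followed at 0.737 (Spearman 0.750), or 0.557 without cafeteria replicate 5 and 0.832 without cafeteria replicate 5 and chow replicate 1. Cdk4 and Cdkn1c ran most nearly opposite by Pearson, at -0.823 (Spearman -0.683), or -0.683 without cafeteria replicate 5 and chow replicate 2. By Spearman the most opposite pair was Ccnd3 and Cdkn1a, at -0.733. On deviations from the group means, Cdk4 and Cdkn2b had the highest correlation, 0.908, and Ccnd3 had 0.797 with Cdk4 and 0.797 with Cdkn2b. Without that centring, Cdk4 and Cdkn2b ran at 0.618 over the 9 arrays. That value was 0.453 without cafeteria replicate 5 and 0.367 without cafeteria replicate 5 and chow replicate 2. Cdk4 also ran opposite to the scores of S phase genes (-0.914), mitosis genes (-0.873), G1/S partners (-0.865) and Rb and E2F proteins (-0.846). Ccnd3 ran at -0.883 with the S phase score. The correlations with scores were not repeated by Spearman or with samples left out. These are descriptions over 9 arrays that share normalization, tissue makeup and RNA quality. The RNA quality score, the 3-prime minus 5-prime signal of the beta-actin and GAPDH controls, is higher in poorer RNA. It ran at -0.699 with Cdk4, -0.809 with Cdkn2b and -0.572 with Ccnd3, so these read lower where the score was higher. It was 1.80 in chow replicate 1, 1.74 in cafeteria replicate 3 and 1.73 in cafeteria replicate 5, the arrays lowest in Cdk4. Their S phase scores were 0.081, 0.15 and 0.13, against -0.18 to 0.082 in the other arrays. The part of RNA quality in the correlations with scores was not tested.

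Of 7108 other genes with a mean at or above the median of all genes, those most like Ccnd1 were Tagln3 (Pearson 0.944, Spearman 0.967), Gucy2c (0.931, 0.850) and Tmem219 (0.899, 0.933). Those most like Ccnd2 were Nkiras1 (0.945, 0.650), Cask (0.944, 0.717) and Pcmtd1 (0.938, 0.733). Most like Cdkn1a were Ifi27l2b (0.912, 0.750), Rnls (0.910, 0.800) and Tle1 (0.895, 0.650). Most like Cks1b were Crat (0.925, 0.917), Slirp (0.908, 0.950) and Lsm8 (0.902, 0.933). All were picked as the highest of 7108 correlations over 9 arrays, a choice that by itself gives high values, and none was tested. Cks1b was listed for its diet difference, and Crat, Slirp and Lsm8 differed by 0.23, 0.30 and 0.29 in the same direction.

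**Figure D3:**
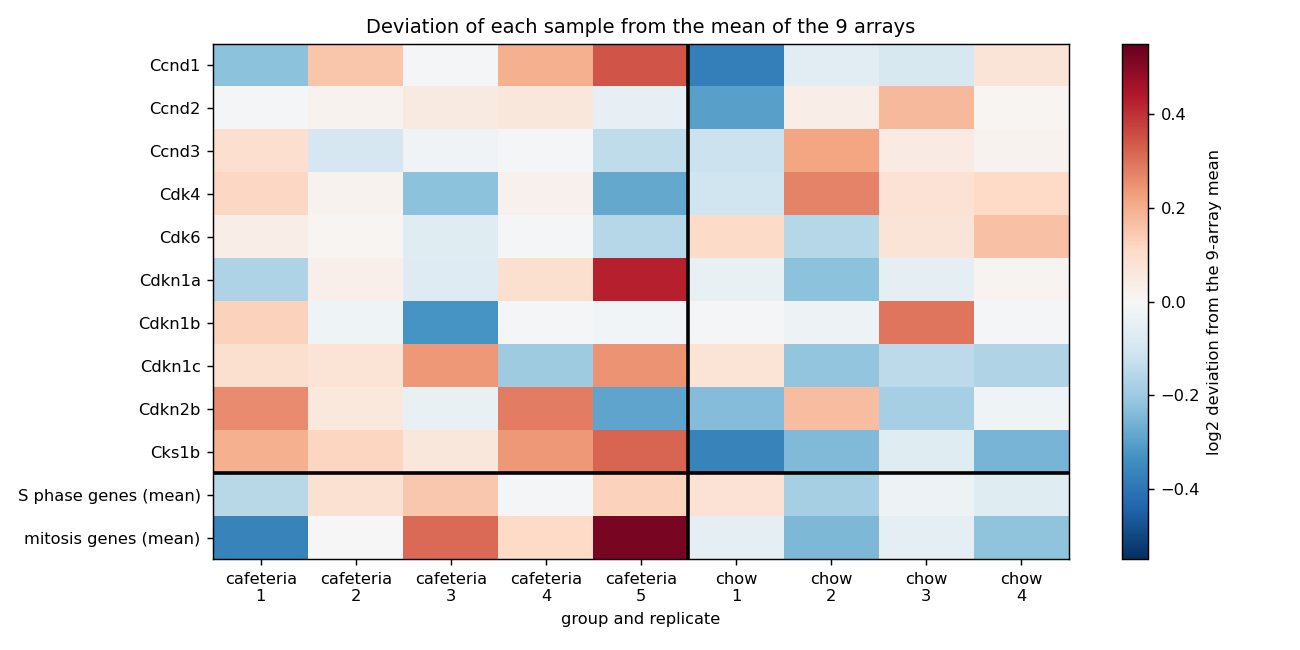
Deviation of each sample from the mean of the 9 arrays, in log2 units (colour), for the 10 genes and for the mean of 15 S phase and 17 mitosis genes. Columns are the 5 cafeteria samples and then the 4 chow samples. Cafeteria replicate 5 has the extreme value in 8 of the 10 genes and the highest mitosis score.

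The rest of the pathway was read from 6 lists with 91 distinct measured genes. By limma, 0 of the 91 passed an adjusted p of 0.05. At an unadjusted p under 0.05 there were 6 higher and 2 lower, against 3.42% and 3.28% of all genes. The groups did not overlap in 3 genes, Ccne1, Lin52 and Ghr, all higher in cafeteria samples, a direction and pattern held by 1.33% of all genes. The fitted difference was above 0 in 61 of the 91, against 50.8% of all genes. The median was 0.091, against 0.0025 over all genes. Genes of a list can vary together among samples, so these counts, here and for each list below, are descriptions.

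Genes that work beside the members at the G1/S step had a difference above 0 in 12 of 16, with a median of 0.094. Ccne1, the cyclin that follows the D cyclins by activating Cdk2, read 5.61, 5.69, 5.94, 5.61 and 6.10 in cafeteria samples, against 5.52, 5.56, 5.58 and 5.44 in chow samples (0.27, SE 0.11; limma adjusted p = 0.844). All cafeteria samples lay above all chow samples, cafeteria replicates 1 and 4 only narrowly. Cdk7 and Ccnh, subunits of the complex that activates Cdk4 and Cdk2, differed by 0.23 (SE 0.098) and 0.19 (SE 0.085), each with an adjusted p of 0.844 by limma. Cdk2 differed by -0.070 (SE 0.11; adjusted p = 0.929). Skp2 was not analysed here.

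The retinoblastoma and E2F proteins had a difference above 0 in 10 of 16, with a median of 0.019. Rb1, the substrate of Cdk4, averaged 6.96 ± 0.17 (SD, n = 5) in cafeteria samples and 7.01 ± 0.039 (n = 4) in chow samples (-0.047, SE 0.090; limma adjusted p = 0.948). E2f1 differed by 0.12 (SE 0.11; adjusted p = 0.878) and E2f2, also an activator, by -0.45 (SE 0.21; adjusted p = 0.844). The DREAM complex subunits Lin52 and Lin54 differed by 0.17 (SE 0.067) and 0.27 (SE 0.15), each with an adjusted p of 0.844 by limma. Lin52 had separate groups, with 7.21 to 7.35 in cafeteria samples and 6.98 to 7.19 in chow samples.

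S phase genes had a difference above 0 in 13 of 15, with a median of 0.12, and mitosis genes in 16 of 17, with a median of 0.25, and 0 of either passed the test. The largest values by the rule were those of the mitotic motors Kif20a (0.62, SE 0.22) and Kif11 (0.43, SE 0.18), of Mki67, the Ki-67 proliferation antigen (0.48, SE 0.30), and of Cdc20 (0.31, SE 0.14), an activator of the anaphase-promoting complex. Of the S phase genes, Tk1 differed by 0.21 (SE 0.097), Cdc45, a cofactor of the helicase at the replication fork, by 0.15 (SE 0.094) and Mcm3, a subunit of the replicative helicase, by -0.18 (SE 0.093). Mki67 read 4.66, 5.47, 5.95, 5.55 and 6.48 in cafeteria samples, against 5.56, 4.86, 5.17 and 4.97 in chow samples. Cafeteria replicate 1 was thus the lowest array and cafeteria replicate 5 the highest, and the difference was 0.72 without the first and 0.27 without the second. With each gene's probe sets averaged, the difference was 0.24 in Kif11, 0.12 in Cdc20 and 0.013 in Cdc45. Kif11 and Mcm3 averaged 4.22 and 4.82 over the 9 arrays, below the array medians. The mitosis score ran from -0.37 to 0.52 in cafeteria samples and from -0.25 to -0.050 in chow samples.

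The p53 targets, listed because Cdkn1a is one of them, had a difference above 0 in 5 of 11, with a median of -0.053. Sesn2 differed by -0.29 (SE 0.13; limma adjusted p = 0.844), Ccng1 by 0.30 (SE 0.16), Tp53inp1 by -0.14 (SE 0.081) and Mdm2, the ligase that degrades p53, by 0.11 (SE 0.13). Known regulators of the members had a difference above 0 in 5 of 16, with a median of -0.12. Among them Ghr, the growth hormone receptor, read 9.30, 9.12, 9.22, 9.25 and 9.33 in cafeteria samples, against 8.95, 8.83, 8.92 and 8.54 in chow samples (0.43, SE 0.093; limma adjusted p = 0.844). The groups did not overlap, and the difference was 0.27 with its probe sets averaged. Prlr, the prolactin receptor that drives islet growth in pregnancy, differed by 0.12 (SE 0.12; adjusted p = 0.881). Men1, which encodes menin, a repressor of beta cell growth that raises Cdkn1b in mouse islets, differed by -0.00096 (SE 0.077; adjusted p = 0.998). Tgfb1 differed by -0.36 (SE 0.16) and Myc by -0.61 (SE 0.28), with Myc reading 4.10, 4.45, 4.33, 4.31 and 4.15 in cafeteria samples, against 5.32, 4.18, 5.72 and 4.29 in chow samples. Chow replicates 1 and 3 carried the high Myc values, with immune scores of 0.13 and 1.25 and immediate early scores of 1.32 and 0.20. Myc averaged 4.54 over the 9 arrays, below the array medians. Without chow replicate 3, the sample highest in the immune score, the difference was -0.33 in Myc and -0.22 in Tgfb1. Leaving out chow replicate 1 gave a difference of -0.46 in Myc and -0.49 in Tgfb1. With the immune score as a covariate it was -0.049 in Myc and -0.083 in Tgfb1, and the part of immune cells was not tested further.

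**Figure D4:**
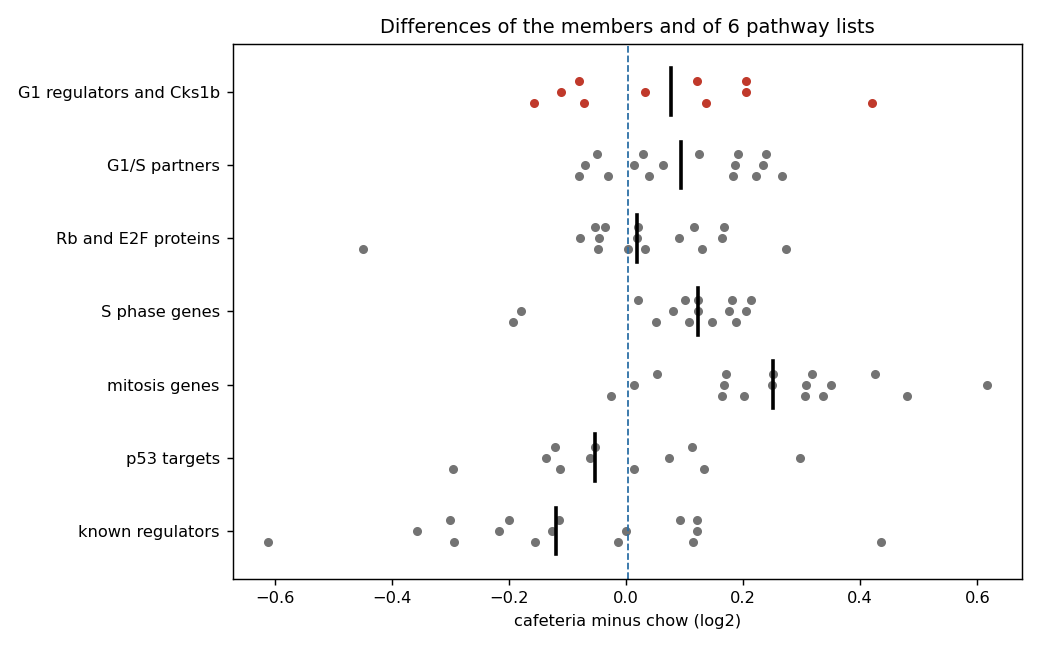
Differences between cafeteria and chow samples in log2 units (horizontal axis) for the 10 genes (red) and for the measured genes of 6 pathway lists (grey), 1 point per gene. Black bars are list medians and the dashed line is the median over all genes, 0.0025. Mitosis genes lie furthest to the right, with 16 of 17 above 0, against 50.8% of all genes. The adjusted threshold was passed by 0 of the plotted genes.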

How the data were processed

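Total RNA of 9 islet samples (5 cafeteria, 4 chow) was hybridised to 1 array each. The authors deposited log2 expression values per probe set; RMA appears, without further detail, in the processing notes of the submitters, beside affy 2.0.1 and R 2.7.0. RMA makes array distributions equal, so a shift shared by most genes would be removed. Of 31099 probe sets, 57 controls were left out and 31042 tested with limma 3.58.1 (R 4.3.3; lmFit, plain eBayes, two-sided, no covariates), with Benjamini-Hochberg adjustment over all of them and a threshold of 0.05. The median SE of a difference over genes was 0.098; precision is limited by having 9 arrays. The platform annotation gave 20826 probe sets a single gene.

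Members, lists and rules were chosen with earlier results of these data known, and Cks1b because of its result, so it was not tested. Named besides the members were the 3 genes with the smallest unadjusted p of each pathway list, 12 genes always named, and the 3 genes most like Ccnd1, Ccnd2, Cdkn1a and Cks1b. The fit was tested on simulated data. Alternatives covered scaling, a filter on dim probe sets, variances, array weights, covariates, averaged probe sets, the threshold and each sample left out. Plots and promoter searches used Python 3.11.15, pandas 2.3.3 and matplotlib 3.10.9.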

Additional observations from a re-analysis of the deposited data

Results flagged for a closer look

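Among 86 groups of values (2 diets for 15 member probe sets and 28 named pathway genes), 2 held a sample set far apart from the others of its group by Dixon's criterion, which chance meets in about 1 of 20 groups. In Cdkn1b, chow replicate 3 read 10.01 against 9.71 for the next chow sample, a gap of 0.923 of the group's range. In the p53 target Sesn2, chow replicate 4 read 9.74 against 9.83 for the next, a gap of 0.880 of the range.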

How the results depend on the processing

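By limma, 0 of the 9 tested members, 0 of the 91 pathway genes and 0 of the genes tested passed the threshold under any of the 19 alternatives, 9 of which left out 1 sample each and 1 of which set the threshold at an adjusted p of 0.10. The smallest adjusted p was 0.368 among the members (RNA quality as a covariate) and 0.264 among all genes (acinar score as a covariate). The members at an unadjusted p under 0.05 numbered 0 to 2, against 3 to 27 pathway genes and 436 to 1921 of all genes. With RNA quality as a covariate they were Cdk4 and Cdkn1c, beside 27 pathway genes and 13.5% of all genes, and with the acinar score Ccnd1 and Cdkn1a, beside 5.81% of all genes. The median difference over the members lay between 0.0021 (without chow replicate 1) and 0.091 (without chow replicate 3) with single samples left out, and between 0.024 and 0.092 under the other alternatives. With the immune score as a covariate Cks1b differed by 0.55, and the sign turned for Cdkn1b (0.041), Cdk2 (0.056) and Men1 (0.051). Men1 also turned with median centring (0.0081), repeated quantile normalization (0.0093) and array weights (0.0075), Cdkn2c with array weights (-0.026), and Cdkn2d (-0.054) and Mdm2 (-0.029) with averaged probe sets. With single samples left out, Ccnd2 ranged from -0.062 to 0.097, Cdkn2c from -0.081 to 0.085, Cdkn2d from -0.025 to 0.091, Rb1 from -0.089 to 0.012 and Men1 from -0.044 to 0.030. The cause of these turns was not tested. The median difference over all genes was 0.0025, or 0.012 with median centring and 0.0048 with repeated quantile normalization. The deposited arrays already had nearly equal medians, so a large shift was not possible. The filter on dim probe sets left out Cdk6, Cdkn1c and Cdkn2b. Of the named pathway genes it left out Cdk2, E2f2, Mcm3, Kif11, Tp53inp1 and Myc. No paired analysis was possible because replicate numbers here were given in accession order and the labels pair no samples.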
